A study of Mus musculus with 12 samples.

Results

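The collagen genes are described here across sorted mouse mammary myoepithelial cells and brown adipocytes. Members were chosen by name, with earlier results of these data known. The rule took every gene whose mouse symbol (Ensembl identifiers mapped with GENCODE) reads Col, a number, a and a number, without antisense genes. This gave 44 genes of 38924 in the count files. They were sorted by the type of structure their chains build into 9 classes: 11 fibrillar, 6 basement membrane network, 6 beaded filament, 9 FACIT, 4 transmembrane, 2 multiplexin and 3 short-chain network collagens, 1 anchoring fibril collagen and 2 others.

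Collagens are extracellular proteins in which chains wind into a helical trimer, often from products of more than 1 gene. Fibrillar collagens assemble into the tension-bearing fibrils of connective tissue, and FACIT collagens sit on the surface of those fibrils. Type IV chains form the sheet that underlies epithelia and surrounds fat cells and vessels, type VI chains form beaded filaments just outside it, and types VII and XVII help anchor basal epithelial cells to it. In the mammary gland, myoepithelial cells lie on this basement membrane and contract to eject milk.

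RNA sequencing libraries came from 6 groups of 2, all of strain C57BL/6 and all carrying the ROSAmTmG reporter, a membrane fluorophore that switches to GFP in cells with Cre activity and stays on in their descendants. Myf5-Cre-ROSAmTmG mice at lactation day 10 gave mammary myoepithelial cells with and without GFP, sorted as Lin-, CD24+ and CD29hi, and Ucp1-iCre-ROSAmTmG mice at the same stage gave the same 2 sorts. GFP-positive brown adipocytes came from 8-week old virgin females of either line. GFP therefore records past Cre activity and not present Myf5 or Ucp1 expression, and the age of the lactating mice was not given in the labels. Nothing in the labels says that the libraries of a group came from separate animals, so the p-values below measure only the spread between these samples.

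Values are CPM, counts per 1000000 counts of the library, with totals adjusted by TMM factors. Library totals ran from 11027738 to 32956480 counts, and 3 counts, the upper 95% limit for a gene at 0, were worth 0.0728 to 0.366 CPM. Both Ucp1 GFP-positive myoepithelial libraries were unlike the others, with 10909 and 10560 genes detected against 13761 to 19794 in the other 10, and with a correlation between the 2 libraries of 0.731 (log2 CPM over 11320 genes) against 0.879 to 0.990 within the other groups. Among collagens, 8 of the 20 members that reached 10 CPM in either library had 3 counts or fewer in the other, against 21.8% of all genes treated alike in this group. This held for 3 of 28 members in Myf5 GFP-positive myoepithelial cells (1.44% of all genes) and for 0 members in Myf5 and Ucp1 GFP-negative cells (0.13% and 0%) and in Myf5 and Ucp1 brown adipocytes (0.251% and 0.0221%). Marker lists without collagens were read beside the labels. The basal keratin Krt5 stood at 10.0 to 656 CPM in the 8 myoepithelial libraries and at 0 in the 4 brown adipocyte libraries, where Ucp1 stood at 949.7 to 16432 CPM. The 8 fibroblast genes summed to 15717 and 5552 CPM in the Myf5 GFP-positive myoepithelial libraries and to 93.4 to 795 CPM in the other 6 myoepithelial libraries. The 8 myoepithelial and basal genes summed there to 2174 and 3455 CPM, against 7969 and 14775 CPM in the Myf5 GFP-negative libraries. Summed pericyte markers were 413 to 2851 CPM in myoepithelial and 103 to 574 CPM in brown adipocyte libraries, endothelial markers 929 to 7216 and 126 to 3716 CPM, and leukocyte markers 409 to 1675 and 7.93 to 143 CPM. Schwann cell markers summed to 0.0243 to 166 and 36.9 to 84.8 CPM, luminal markers to 42.1 to 611 and 0 to 1.10 CPM, milk genes to 11468 to 79536 and 0.122 to 1.78 CPM, and brown adipocyte markers to 2297 to 15204 and 15442 to 32575 CPM. Single genes carried some of these sums. In myoepithelial libraries Fabp4 alone gave 2167 to 14599.8 CPM of the brown adipocyte sum and Cidea 118 to 600.9 CPM. The other genes of that list reached 2.71 CPM (Ucp1), 5.31 CPM (Plin1), 2.43 CPM (Cox7a1), 16.4 CPM (Ppargc1a), 17.0 CPM (Adipoq) and 23.4 CPM (Dio2) there. Dio2 at 23.4 CPM, in Myf5 GFP-positive replicate 1, lay above both Ucp1 brown adipocyte libraries (1.68 and 6.04 CPM). Fabp4 in brown adipocytes stood at 7755 to 15551 CPM. Cd74 gave 357 to 1562 CPM of the leukocyte sum in myoepithelial libraries, and S100b 30.96 to 81.4 CPM of the Schwann cell sum in brown adipocytes. The endothelial gene Pecam1 was present in the 8 myoepithelial libraries at 171 to 1201 CPM. In bulk samples, fewer cells of a type and less RNA per cell cannot be told apart.

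The 250 bases before the RefSeq start of 3 members are printed because results below turn on them: Col3a1 was called in 4 comparisons, Col27a1 was the 1 member called higher in brown adipocytes than in GFP-negative myoepithelial cells, and Col4a6, which starts back to back with Col4a5 on the X chromosome, was at 0 in both Ucp1 GFP-positive myoepithelial libraries. Sequences are from RefSeq (GRCm38.p6), 5′ to 3′ on the strand of the gene, and capitals mark matches on either strand to the TATA box TATAAA, to CCAAT or to the GC box GGGCGG. The windows are chr1:45311288-45311537 (plus strand) for Col3a1, chr4:63215162-63215411 (plus strand) for Col27a1 and chrX:141474077-141474326 (minus strand) for Col4a6. The RefSeq start of Col27a1 lies inside the gene as GENCODE gives it, so that the annotations differ and this window is not upstream of the GENCODE gene.
Col3a1: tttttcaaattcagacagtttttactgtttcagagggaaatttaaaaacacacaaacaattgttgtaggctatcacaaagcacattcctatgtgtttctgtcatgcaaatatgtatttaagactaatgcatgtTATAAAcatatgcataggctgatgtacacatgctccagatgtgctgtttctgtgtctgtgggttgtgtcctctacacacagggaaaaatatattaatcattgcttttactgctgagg
Col27a1: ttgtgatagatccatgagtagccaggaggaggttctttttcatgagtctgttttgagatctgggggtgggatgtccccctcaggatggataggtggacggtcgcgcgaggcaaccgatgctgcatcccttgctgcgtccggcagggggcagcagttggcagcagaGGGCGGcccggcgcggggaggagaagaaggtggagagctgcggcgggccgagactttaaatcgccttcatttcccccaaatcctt
Col4a6: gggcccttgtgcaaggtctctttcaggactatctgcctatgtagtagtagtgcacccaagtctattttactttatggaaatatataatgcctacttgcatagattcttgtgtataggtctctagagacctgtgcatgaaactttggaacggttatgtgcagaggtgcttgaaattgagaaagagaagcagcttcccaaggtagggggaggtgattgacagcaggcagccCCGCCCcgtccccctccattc
Windows were found for 35 of the 44 members (38 windows). TATAAA was in 13.16% of the members' windows and in 12.37% of all 32851 windows, CCAAT was in 34.21% and 33.85%, and GGGCGG in 57.89% and 32.74%. The Col3a1 window held 1 TATAAA match, 117 bases before the start, and no match to the other motifs. Col27a1 and Col4a6 windows each held 1 GGGCGG match, 85 and 21 bases before the start, and no TATAAA. Such matches describe letters and are not sites of binding. Other members were neighbours too (GENCODE M21, mm10): Col4a1 and Col4a2 on chromosome 8 start back to back with 22 shared bases, Col4a4 and Col4a3 on chromosome 1 start back to back 71 bases apart, Col3a1 and Col5a2 lie end to end 24614 bases apart, and Col6a6, Col6a5 and Col6a4 follow each other on chromosome 9.

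Collagen RNA was most abundant in Myf5 GFP-positive and Ucp1 GFP-negative myoepithelial cells and least in brown adipocytes. The summed level of the 44 genes was 7776 and 12482 CPM in the Myf5 GFP-positive myoepithelial libraries and 1477 and 4282 CPM in the Myf5 GFP-negative ones. It was 4748 and 3335 CPM in the Ucp1 GFP-positive and 8141 and 7507 CPM in the Ucp1 GFP-negative myoepithelial libraries. Brown adipocytes held 588 and 1099 CPM (Myf5) and 1207 and 798 CPM (Ucp1), below every myoepithelial library.

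**Figure D1:**
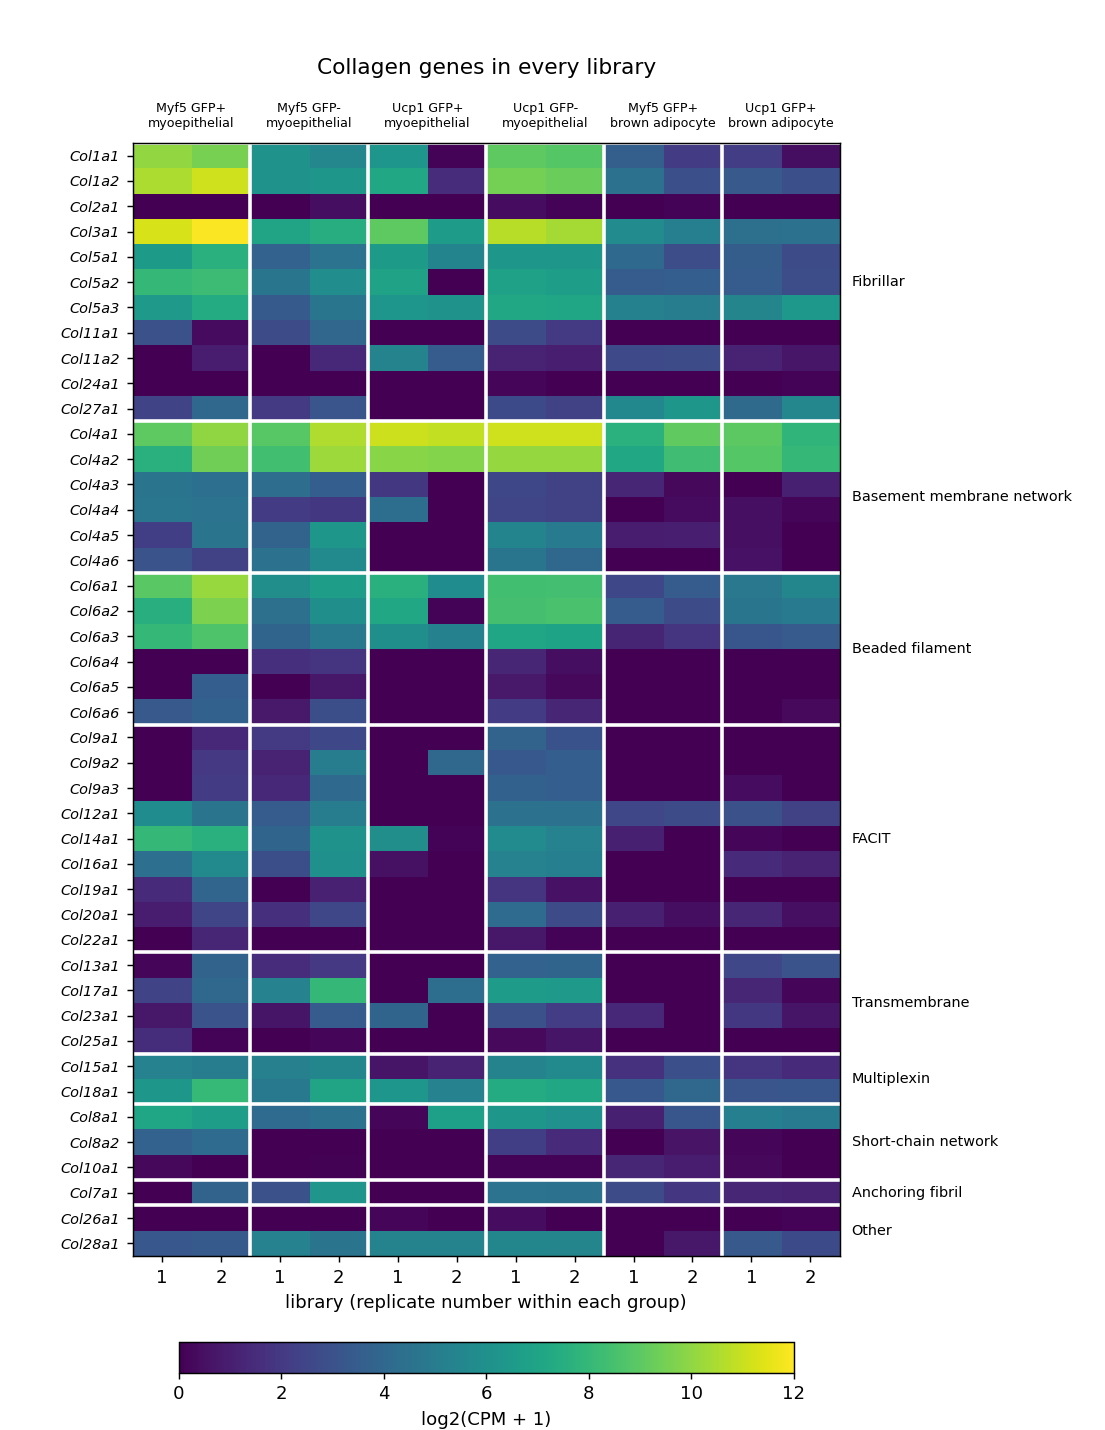
Level of each of the 44 collagen genes (rows, by class) in each of the 12 libraries (columns), as log2(CPM + 1) in colour. The Col1a1, Col1a2, Col3a1, Col6a1, Col6a2 and Col6a3 rows are brightest in the Myf5 GFP-positive and Ucp1 GFP-negative myoepithelial libraries, Col4a1 and Col4a2 are bright in every library, and 19 members are at 0 in both Ucp1 GFP-positive myoepithelial libraries.

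The class that led differed between the groups. Fibrillar collagens made up 70.1% and 60.6% of the collagen CPM in the Myf5 GFP-positive myoepithelial libraries, at 5448 and 7565 CPM. In the Myf5 GFP-negative libraries they made up 21.9% and 10.1%, at 323 and 431 CPM, and the basement membrane network led with 57.5% and 66.9%. Ucp1 GFP-negative libraries divided almost evenly, with 40.1% and 36.3% fibrillar and 41.8% and 44.9% basement membrane. Brown adipocyte libraries had 57.8% to 79.1% in the basement membrane network. The basement membrane sum spanned less than the fibrillar sum: over the 12 libraries it ran from 340.2 to 3404 CPM, and the fibrillar sum from 115 to 7565 CPM.

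**Figure D2:**
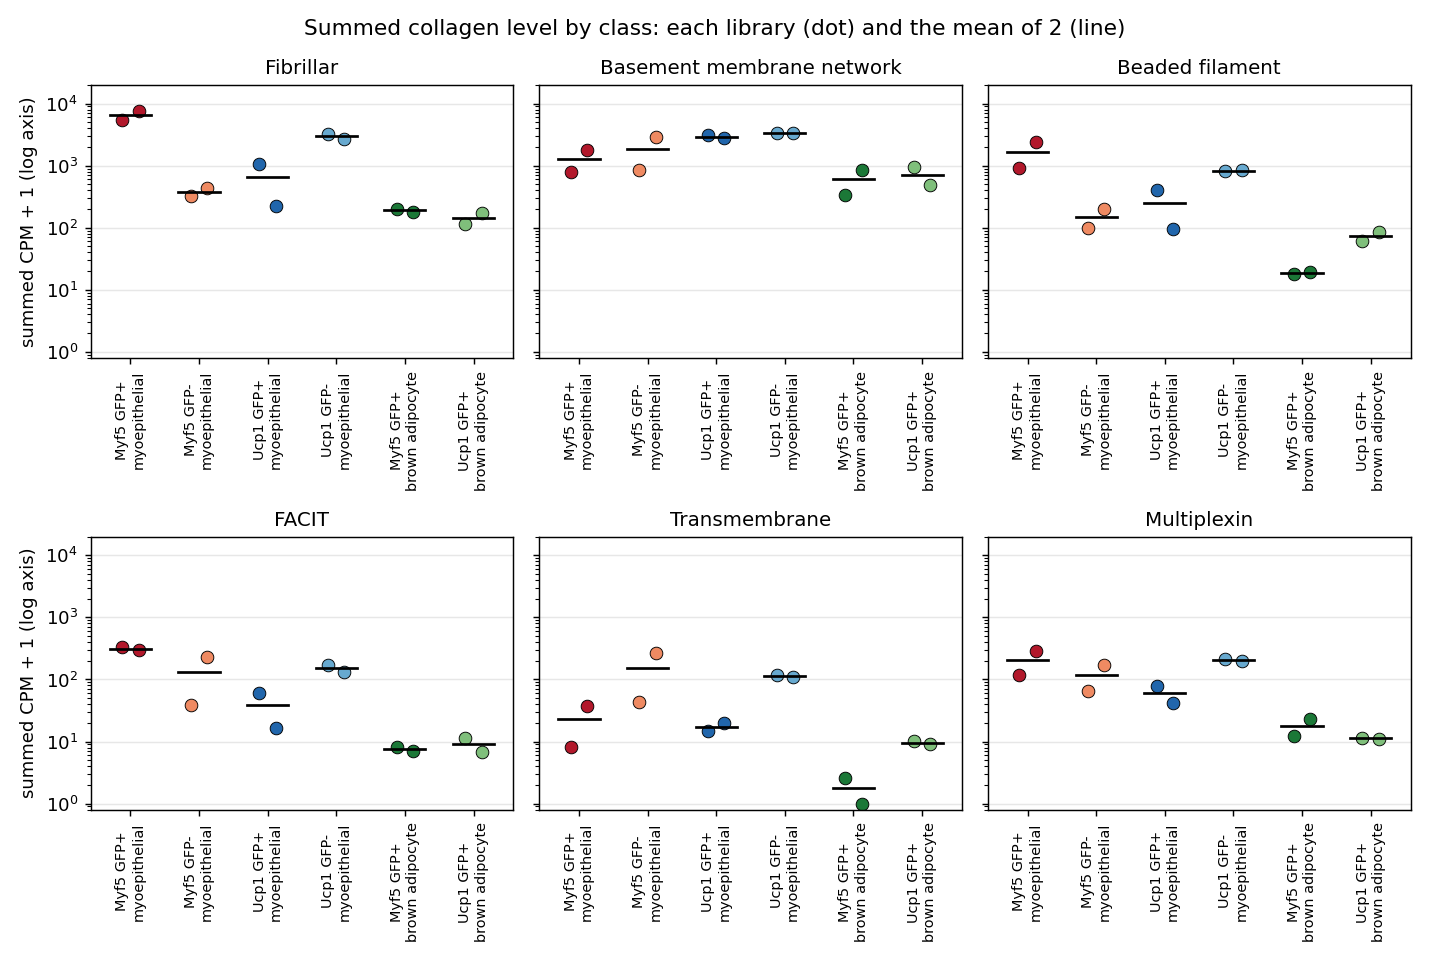
Summed CPM + 1 of 6 collagen classes on a log axis, with a dot per library and a line at the mean of the 2 libraries of each group. Fibrillar sums are highest in the Myf5 GFP-positive myoepithelial libraries (5448 and 7565 CPM), whereas the mean basement membrane sum is highest in the Ucp1 GFP-negative and next in the Ucp1 GFP-positive myoepithelial cells (3389 and 2939 CPM), with 1 Myf5 GFP-negative library (2864 CPM) inside their range.

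Col1a1 (chr11:94936224-94953042) and Col1a2 (chr6:4504814-4541544) encode the chains of type I collagen, the main protein of stiff fibrils. Col1a1 stood at 1075 and 737 CPM in Myf5 GFP-positive and 68.1 and 46.7 CPM in Myf5 GFP-negative myoepithelial libraries, at 77.3 and 0.0728 CPM in Ucp1 GFP-positive and 525 and 451 CPM in Ucp1 GFP-negative ones, and at 11.2, 3.21, 3.57 and 0.340 CPM in the brown adipocyte libraries. Col1a2 followed the same order, at 1469.8 and 2243, 71.1 and 79.6, 146 and 1.89, 717 and 602, 22.1 and 6.50, and 9.34 and 6.72 CPM in the same libraries. In the Ucp1 GFP-positive group the libraries disagreed: the Col1a1 values are 2105 and 3 counts. Per kilobase of transcript, the Col1a1 level was 0.296 to 0.864 of the Col1a2 level in the 10 libraries with more than 10 counts of both.

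Col3a1 (chr1:45311538-45349706), the chain of the thinner type III fibrils, had, per kilobase of transcript, the highest mean of the fibrillar members in each of the 4 myoepithelial groups. Its levels were 2457 and 3909 CPM in Myf5 GFP-positive, 129 and 175 CPM in Myf5 GFP-negative, 519 and 97.3 CPM in Ucp1 GFP-positive and 1668 and 1342 CPM in Ucp1 GFP-negative myoepithelial libraries. Brown adipocyte libraries held 53.5, 35.5, 20.9 and 22.0 CPM. No brown adipocyte library overlapped a myoepithelial library. Per kilobase it was the highest of all members in Myf5 GFP-positive myoepithelial cells (mean 572 CPM per kilobase), while Col4a1 was highest in the other 5 groups (55.3 to 339 CPM per kilobase).

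Type V chains start fibrils and limit their width. Col5a1 measured 92.8 and 194 CPM in Myf5 GFP-positive, 12.9 and 22.7 CPM in Myf5 GFP-negative, 90.8 and 42.2 CPM in Ucp1 GFP-positive and 81.0 and 79.7 CPM in Ucp1 GFP-negative myoepithelial libraries, and 16.2, 6.14, 10.6 and 5.61 CPM in brown adipocytes. Col5a2 measured 257 and 299.7, 24.0 and 57.4, 120.4 and 0, and 116 and 104 CPM in the same myoepithelial groups, and 10.1, 11.2, 10.2 and 6.04 CPM in brown adipocytes. The value of 0 in Ucp1 GFP-positive replicate 2 stands beside 3277 counts in replicate 1. Col5a3 was the type V chain with the highest level in brown adipocytes, with 37.3, 31.6, 42.9 and 83.8 CPM there against 85.6 and 166, 9.54 and 24.2, 78.7 and 68.6, and 146 and 137 CPM in the myoepithelial groups. Its brown adipocyte libraries lay above the Myf5 GFP-negative ones and below the Myf5 GFP-positive and Ucp1 GFP-negative ones.

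Col27a1 (chr4:63214004-63334991), a fibrillar chain best known from cartilage, was highest in brown adipocytes. Brown adipocyte libraries held 46.9 and 80.2 CPM (Myf5) and 16.5 and 46.3 CPM (Ucp1). Myoepithelial libraries held 4.42 and 14.9, 3.11 and 7.89, 0 and 0, and 5.50 and 4.03 CPM, so that every brown adipocyte library lay above every myoepithelial one. Col11a2, a type XI chain, was highest in Ucp1 GFP-positive myoepithelial libraries at 39.9 and 10.3 CPM and lay between 0 and 5.68 CPM in the other 10. It too had a higher mean in brown adipocytes (5.37, 5.68, 1.26 and 0.680 CPM) than in GFP-negative myoepithelial cells (0, 1.58, 1.23 and 1.01 CPM), with overlap and without passing (log2 difference of Col11a2 1.29, edgeR adjusted p = 0.529). Col11a1 reached at most 14.8 CPM, Col2a1 0.364 CPM and Col24a1 0.120 CPM.

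Col4a1 (chr8:11198423-11312826) and Col4a2 (chr8:11312805-11449287), the chains of the type IV trimer found in most basement membranes, were detected in all 12 libraries. Col4a1 stood at 521 and 1033, 469 and 1524, 2138 and 1912, and 2247 and 2234 CPM in Myf5 GFP-positive, Myf5 GFP-negative, Ucp1 GFP-positive and Ucp1 GFP-negative myoepithelial libraries, and at 199, 537, 503 and 228 CPM in brown adipocytes. Col4a2 stood at 198 and 682, 325 and 1196, 919 and 887, 1081 and 1088, and 139, 321, 451 and 251 CPM. These genes share a start region, and the ratio of Col4a1 to Col4a2 per kilobase lay between 0.887 and 2.57 (median 1.56, 12 libraries). Both Ucp1 groups of myoepithelial cells lay above both Myf5 groups for Col4a1, without overlap. For Col4a2 they overlapped, since Myf5 GFP-negative replicate 2 (1196 CPM) lay above every Ucp1 myoepithelial library. The order was not tested over both sorts.

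Col4a5 (chrX:141475385-141689234) and Col4a6 (chrX:141165403-141474076), which start back to back, build the type IV network under epithelia such as that of breast and skin. Col4a5 measured 3.67 and 23.5, 13.1 and 80.8, 0 and 0, and 42.2 and 28.5 CPM in the myoepithelial groups and 0.854, 1.01, 0.420 and 0 CPM in brown adipocytes. Col4a6 measured 7.28 and 4.15, 21.2 and 50.3, 0 and 0, and 24.2 and 15.6 CPM in myoepithelial cells and reached 0.525 CPM in 1 of the 4 brown adipocyte libraries, with 0 in the other 3. Both genes were thus at 0 in both Ucp1 GFP-positive myoepithelial libraries, which allows up to 0.0438 CPM over the pooled counts by counting error alone. Col4a3 and Col4a4, the chains known from the kidney filter, were highest in Myf5 GFP-positive myoepithelial libraries, at 23.3 and 19.7 CPM for Col4a3 and 25.1 and 22.5 CPM for Col4a4. Elsewhere Col4a3 was 18.4 and 11.1, 2.87 and 0, and 5.02 and 4.13 CPM in the other myoepithelial groups and 1.46, 0.183, 0 and 1.11 CPM in brown adipocytes. Col4a4 was 3.28 and 2.79, 19.1 and 0, 4.72 and 4.16, and 0, 0.275, 0.420 and 0.170 CPM.

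Type VI chains of the common trimer, Col6a1 (chr10:76708792-76726168), Col6a2 (chr10:76595762-76623630) and Col6a3 (chr1:90765923-90843971), were highest in Myf5 GFP-positive and next in Ucp1 GFP-negative myoepithelial cells by group mean, as were the type I and III chains. Col6a1 stood at 492 and 1149 CPM in Myf5 GFP-positive, 59.5 and 101 CPM in Myf5 GFP-negative, 195 and 55.8 CPM in Ucp1 GFP-positive and 330.3 and 339 CPM in Ucp1 GFP-negative libraries. Col6a2 stood at 182 and 785, 20.8 and 61.5, 147 and 0.0971, and 350.4 and 375 CPM, and Col6a3 at 251 and 408, 13.7 and 28.2, 62.5 and 37.9, and 135 and 122 CPM. In brown adipocytes the values of the lines did not overlap: Col6a1 was 5.13 and 10.1 CPM in Myf5 and 27.0 and 44.4 CPM in Ucp1 libraries, Col6a2 10.4 and 5.95 against 24.7 and 30.8 CPM, and Col6a3 1.34 and 2.66 against 8.40 and 9.95 CPM. Of all genes, 31.3% lay above and 28.3% below without overlap in the Ucp1 libraries. No type VI chain passed between the lines in the edgeR test over all 12 libraries. The alternative chains stayed low, with at most 2.51 CPM for Col6a4, 11.2 CPM for Col6a5 and 12.1 CPM for Col6a6.

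Among FACIT collagens, Col14a1, which decorates mature fibrils, stood at 254 and 192 CPM in Myf5 GFP-positive, 13.4 and 70.5 CPM in Myf5 GFP-negative, 59.3 and 0.0728 CPM in Ucp1 GFP-positive and 53.8 and 39.1 CPM in Ucp1 GFP-negative myoepithelial libraries, and at 1.10, 0, 0.105 and 0 CPM in brown adipocytes. Col12a1, a fibril-associated chain of tendon and other loaded tissue, was 56.1 and 23.8, 10.2 and 32.8, 0 and 0, and 22.3 and 22.1 CPM in myoepithelial cells and 4.88, 5.77, 6.82 and 4.08 CPM in brown adipocytes. Col16a1 was 19.9 and 50.5, 6.43 and 64.3, 0.441 and 0, and 39.6 and 34.9 CPM in myoepithelial cells and 0, 0, 1.78 and 1.28 CPM in brown adipocytes. The other 6 stayed under 20 CPM in every library except Col9a2, which reached 33.1 CPM in Myf5 GFP-negative replicate 2. In brown adipocytes Col9a1, Col9a2, Col19a1 and Col22a1 were at 0 in all 4 libraries.

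Collagens that anchor epithelial cells had another order over the groups. Col17a1 (chr19:47646344-47692094), the transmembrane collagen of hemidesmosomes, measured 4.42 and 15.7 CPM in Myf5 GFP-positive, 39.5 and 251 CPM in Myf5 GFP-negative, 0 and 19.1 CPM in Ucp1 GFP-positive and 99.7 and 89.7 CPM in Ucp1 GFP-negative myoepithelial libraries. Brown adipocytes held 0, 0, 1.47 and 0.170 CPM. Col7a1, the anchoring fibril collagen, measured 0 and 12.9, 6.92 and 75.9, 0 and 0, and 22.6 and 21.3 CPM in myoepithelial cells and 5.98, 2.75, 1.47 and 1.28 CPM in brown adipocytes. Both were highest in Myf5 GFP-negative replicate 2, the library with the highest summed myoepithelial and basal markers (14775 CPM). The other transmembrane collagens reached 13.4 CPM (Col13a1), 13.7 CPM (Col23a1) and 1.99 CPM (Col25a1).

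Multiplexins link basement membranes to the matrix around them. Col15a1 stood at 38.8 and 32.2, 36.3 and 44.1, 0.588 and 1.21, and 40.7 and 52.8 CPM in the myoepithelial groups and at 2.32, 6.50, 2.52 and 1.79 CPM in brown adipocytes. Col18a1, whose end fragment is endostatin, stood at 79.9 and 258, 28.1 and 128, 77.4 and 39.2, and 169 and 147 CPM and at 8.79, 15.6, 7.87 and 8.33 CPM. Outside the Ucp1 GFP-positive group, Col15a1 varied little among myoepithelial libraries, from 32.2 to 52.8 CPM.

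Short-chain and other members completed the family. Col8a1, a chain of hexagonal networks made by vessel wall and stromal cells, was 137 and 106, 17.0 and 21.9, 0.110 and 107, and 80.9 and 65.7 CPM in myoepithelial cells and 1.10, 8.15, 35.5 and 29.8 CPM in brown adipocytes. Col28a1 was 8.53 and 9.57 CPM in Myf5 GFP-positive and 23.3 to 44.0 CPM in the other 6 myoepithelial libraries, and 0, 0.733, 9.24 and 5.53 CPM in brown adipocytes. In the Ucp1 line it was close to level, at 40.6 and 40.0 CPM in GFP-positive and 44.0 and 43.2 CPM in GFP-negative libraries. Col8a2 reached 17.6 CPM, Col10a1 1.46 CPM and Col26a1 0.300 CPM.

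Myf5 GFP-positive and GFP-negative myoepithelial cells were compared to see whether cells of a Myf5 lineage carry other collagen RNA than their neighbours. Fibrillar and type VI collagens had wide gaps: the mean of Col3a1 was 3183 ± 1027 CPM with GFP and 152 ± 32.9 CPM without (SD, n = 2), and Col6a1 stood at 820 ± 465 and 80.5 ± 29.6 CPM. No member passed the test over all 12 libraries, in which 0% of the 16953 genes tested were called in either direction (edgeR quasi-likelihood test, Benjamini-Hochberg adjusted p under 0.05). At an unadjusted p under 0.05 there were 8 members and 1573 genes.

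The 2 GFP-positive libraries both lay above the 2 GFP-negative ones for 16 of the 41 members tested (14.5% of all genes) and below for 5 (20.2% of all genes). In the fibrillar class 6 of the 9 tested lay above without overlap, with a median log2 difference of 2.90 against -0.06 for all genes, and in the beaded filament class 4 of 6, with a median of 3.45. The fitted log2 differences were 3.98 for Col1a1 (SE 1.94, adjusted p = 0.599), 4.62 for Col1a2 (SE 1.47, adjusted p = 0.344) and 4.39 for Col3a1 (SE 0.76, adjusted p = 0.212). For type VI they were 3.35 for Col6a1, 3.55 for Col6a2 and 3.98 for Col6a3, with adjusted p of 0.253, 0.650 and 0.212. The basement membrane class had a median of -0.57, with -0.36 for Col4a1 and -0.79 for Col4a2, whose library values overlapped between the sorts. Col17a1, the hemidesmosome collagen, had -3.85 (SE 2.14, adjusted p = 0.684), and its GFP-positive libraries lay below both GFP-negative ones.

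Without the 2 discordant Ucp1 GFP-positive myoepithelial libraries, which share the estimate of spread, 7 members were called higher in Myf5 GFP-positive cells, beside 1.09% of all genes called higher in that fit. They were Col1a2 (4.62, SE 0.66, adjusted p = 0.0215), Col3a1 (4.39, SE 0.52, adjusted p = 0.0211), Col5a2 (2.77, SE 0.51, adjusted p = 0.0398), Col5a3 (2.90, SE 0.59, adjusted p = 0.0496), Col6a1 (3.35, SE 0.60, adjusted p = 0.0364) and Col6a3 (3.98, SE 0.55, adjusted p = 0.0211), as log2 differences. The other was Col8a2 (adjusted p = 0.0457), at 12.7 and 17.6 CPM against 0 in both GFP-negative libraries, at least 239-fold higher when 3 counts over that group are set as its limit. DESeq2 on all 12 libraries called 7 members higher (3.13% of all genes), of which Col5a1 replaced Col5a2. The same libraries differed in their markers: 8 of 8 fibroblast genes and 6 of 6 pericyte genes lay higher without overlap in GFP-positive cells (median log2 4.53 and 2.39), and 7 of 8 myoepithelial and basal genes lower (median -4.00). Also lower without overlap were 8 of 8 endothelial (median -1.69), 4 of 6 leukocyte, 3 of 4 Schwann cell, 4 of 5 luminal and 4 of 5 milk genes. Decorin (Dcn) stood at 10857 and 3570 CPM against 489 and 228 CPM, and Krt14 at 3.98 and 54.4 CPM against 493 and 831 CPM. The part of these cells in the collagen difference was not tested.

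**Figure D3:**
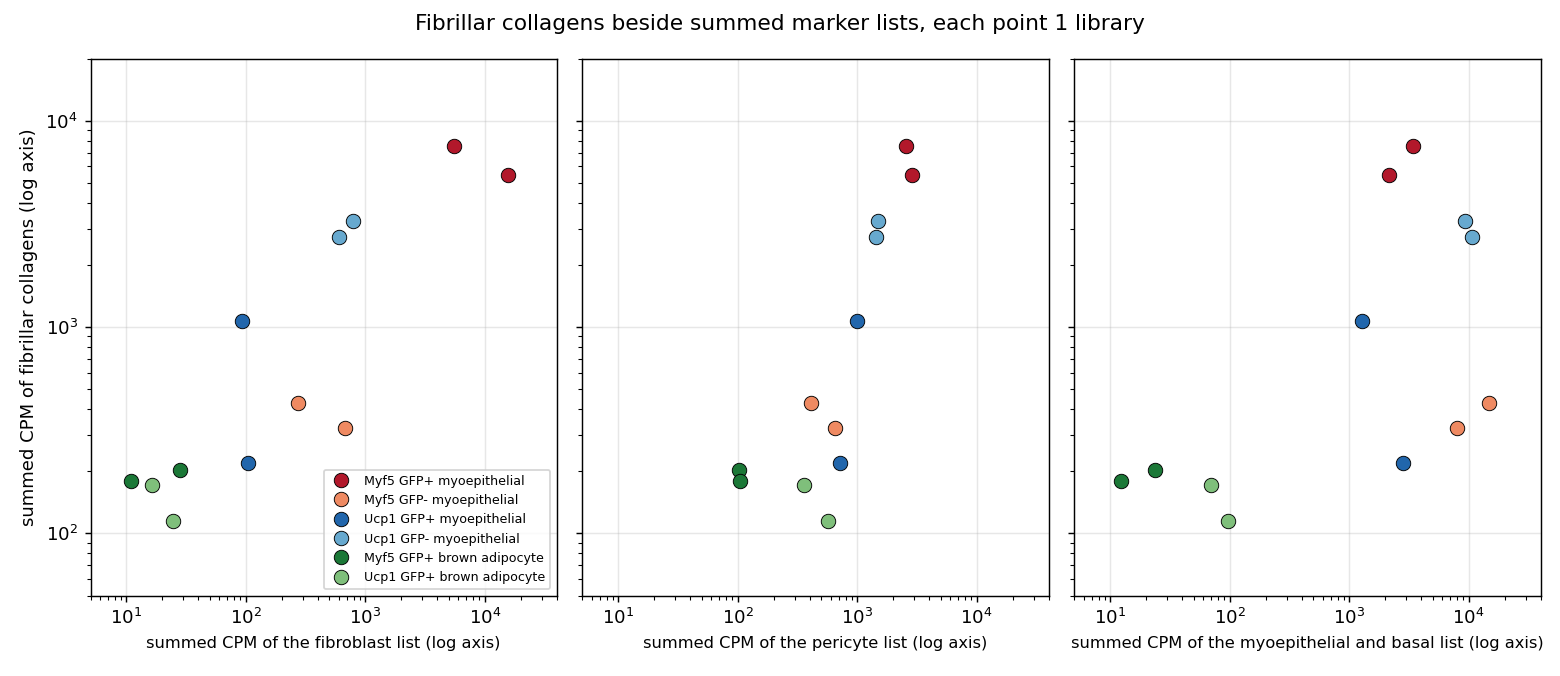
Summed CPM of the 11 fibrillar collagens (vertical, log axis) against the summed CPM of the fibroblast, pericyte, and myoepithelial and basal marker lists (horizontal, log axes), with 1 point per library coloured by group. The Myf5 GFP-positive myoepithelial libraries are highest on the fibrillar axis (5448 and 7565 CPM) and on the fibroblast axis (15717 and 5552 CPM), and not on the myoepithelial axis (2174 and 3455 CPM).

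Ucp1 GFP-positive and GFP-negative myoepithelial cells were compared in the same way, with the reporter switched by Ucp1-iCre. Here 12 members were lower in GFP-positive cells, beside 14% of all genes, and 0 were higher, beside 0.277% of all genes. Col15a1 fell by 5.68 on the log2 scale (SE 0.85, adjusted p = 0.00258), from 46.7 ± 8.49 CPM to 0.901 ± 0.442 CPM (SD, n = 2). Basement membrane chains divided: Col4a5 and Col4a6 were called lower, whereas Col4a1 differed by -0.15 and Col4a2 by -0.26 without passing.

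Of the 12 called lower, 10 were at 0 in both GFP-positive libraries, so their size is a lower bound against 3 counts over that group. That bound covers counting error only. In this group, 21.8% of all genes at 10 CPM or more in either library had 3 counts or fewer in the other. Col4a5 was at least 806-fold lower (adjusted p = 0.00808), Col12a1 at least 506-fold (adjusted p = 0.00151), Col7a1 at least 501-fold (adjusted p = 0.0398) and Col4a6 at least 455-fold (adjusted p = 0.0104). Col13a1, Col20a1, Col27a1 and Col11a1 were at least 295-, 263-, 109- and 102-fold lower, with adjusted p of 0.0301, 0.00858, 0.00334 and 0.0457. Col8a2 and Col6a6 were at least 62.0- and 54.8-fold lower, with adjusted p of 0.0399 and 0.0398. Col16a1, with 0.441 and 0 CPM against 39.6 and 34.9 CPM, was the remaining member called (adjusted p = 0.0406).

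Fibrillar collagens of the type I and III fibrils did not pass the edgeR test in the Ucp1 line, although every GFP-positive library lay below every GFP-negative one. Their log2 differences were -3.66 for Col1a1, -3.15 for Col1a2 and -2.29 for Col3a1, the last with an adjusted p of 0.0555. The GFP-positive replicates disagreed for these genes, and Col5a2, Col14a1 and Col8a1 were at 0.110 CPM or less in 1 library and at 59.3 to 120.4 CPM in the other. Of the 41 tested members, 33 lay below without overlap (48.1% of all genes) and 1 above (11.8%). The median was -3.66, or -3.16 with empty groups at their bound, against -0.69 for all genes. The member above was Col11a2, with a log2 difference of 4.48. With DESeq2 on all 12 libraries, Col11a2 was called higher and Col3a1 lower. Markers also differed: 5 of 8 fibroblast, 4 of 5 milk, 3 of 4 Schwann cell, 2 of 6 leukocyte and 2 of 8 brown adipocyte genes were called lower in GFP-positive cells. Thy1 and Dpp4 were at 0 in both libraries. Of the myoepithelial and basal genes 0 of 8 were called, but 8 of 8 lay lower without overlap (median -2.07), with sums of 1283 and 2848 CPM against 9366 and 10653 CPM. So did 7 of 8 fibroblast, 6 of 6 leukocyte, 5 of 6 pericyte, 5 of 5 luminal, 5 of 5 milk and 4 of 4 Schwann cell genes, whereas 0 of 8 endothelial genes lay lower and 2 higher. Of the 8 brown adipocyte genes 4 lay lower and 1 higher without overlap. The part of these markers in the result was not tested. The count was 19 without GFP-positive replicate 1, and 6 without either GFP-negative replicate. Col4a5, Col4a6, Col12a1, Col15a1, Col20a1 and Col27a1 were called in all 8 alternatives run, Col13a1 in 6, Col8a2 and Col16a1 in 5, Col6a6 in 4, and Col7a1 and Col11a1 in 3. Another scaling (RLE) called the same number and raised the median of all genes by 0.17.

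**Figure D4:**
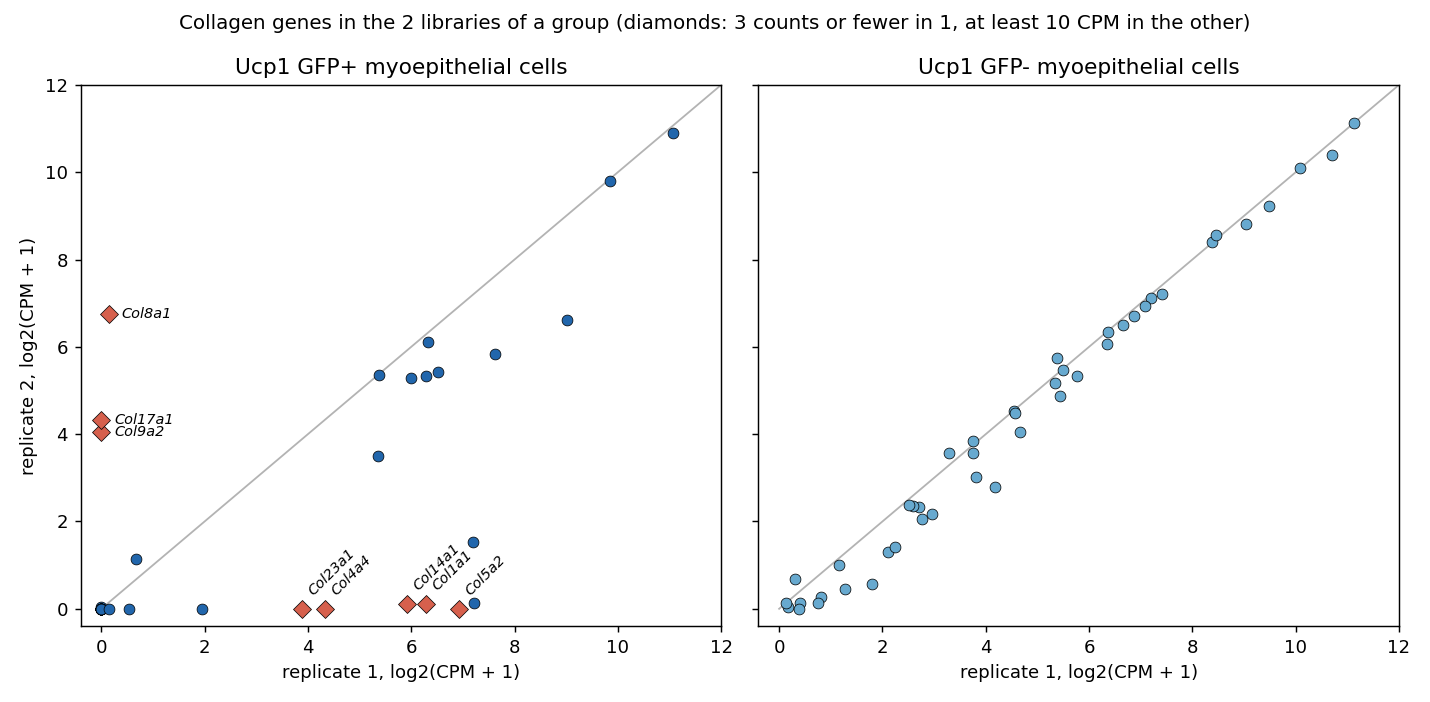
Each collagen gene in replicate 1 (horizontal) and replicate 2 (vertical) of Ucp1 GFP-positive and Ucp1 GFP-negative myoepithelial cells, as log2(CPM + 1), with a line where both are equal. Red diamonds mark the 8 members with 3 counts or fewer in 1 library and at least 10 CPM in the other, all in the GFP-positive panel.

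The Myf5 and Ucp1 labels were then compared by the difference of their differences. The label effect was lower in the Ucp1 line for 14 members, beside 10.7% of all genes, and higher for 0, beside 0.283%. By class these were 4 of 9 fibrillar members tested, 3 of 6 beaded filament, 2 of 6 basement membrane, 2 of 9 FACIT, 1 of 4 transmembrane, 1 of 2 multiplexin and 1 of 3 short-chain members. The members with values in all 4 groups were Col1a2 (-7.78), Col3a1 (-6.68), Col15a1 (-5.51), Col6a3 (-5.33), Col6a1 (-4.76) and Col5a3 (-3.84), as differences of log2 differences. The remaining 8 had an empty group, so that their fitted size depends on the added prior count. Col5a3 shows the pattern: GFP-positive libraries lay above GFP-negative ones in the Myf5 line (85.6 and 166 against 9.54 and 24.2 CPM) and below them in the Ucp1 line (78.7 and 68.6 against 146 and 137 CPM). Fibroblast markers went with it, as 5 of 8 were also called lower in this test. So were 1 of 6 pericyte, 2 of 6 leukocyte, 2 of 4 Schwann cell and 1 of 8 brown adipocyte markers. The part of these markers was not tested. The count was 22 without Ucp1 GFP-positive replicate 1, 5 and 7 without Myf5 GFP-negative replicate 1 or 2, and 7 and 8 without Ucp1 GFP-negative replicate 1 or 2.

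Brown adipocytes of both lines were compared with GFP-negative myoepithelial cells of both lines, 4 libraries against 4. Tissue cannot be told apart here from lactation, age and the GFP gate. In brown adipocytes 23 members were lower, beside 14.6% of all genes, and 1 was higher, beside 12% of all genes. Chains of several networks were among them: Col3a1 fell by 3.95 on the log2 scale (SE 0.53, adjusted p = 0.00102), Col6a3 fell by 3.59 (SE 0.42, adjusted p = 0.000579) and Col15a1 fell by 3.81 (SE 0.55, adjusted p = 0.00154). The member that rose was Col27a1, by 3.12 (SE 0.69, adjusted p = 0.0125), from 5.13 ± 2.09 to 47.5 ± 26.0 CPM (SD, n = 4).

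By class, 5 of 9 fibrillar members tested were lower, 4 of 6 basement membrane, 4 of 6 beaded filament, 6 of 9 FACIT, 1 of 4 transmembrane, 2 of 2 multiplexin and 0 of 3 short-chain members. For type I collagen, Col1a1 fell by 5.49 (SE 1.49, adjusted p = 0.0241) and Col1a2 fell by 4.38 (SE 1.03, adjusted p = 0.0137). Of the common type IV network, Col4a1 fell by 2.03 (SE 0.50, adjusted p = 0.0171) and Col4a2 fell by 1.68 (SE 0.54, adjusted p = 0.0454), and single libraries of the tissues overlapped. The epithelial type IV chain Col4a5 fell by 6.53 (adjusted p = 0.00659), and Col4a6 (adjusted p = 0.00406) went from 27.9 ± 15.4 to 0.131 ± 0.262 CPM (SD, n = 4). Col17a1 (adjusted p = 0.0116) went from 119.96 ± 91.2 to 0.410 ± 0.711 CPM.

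Further calls were Col18a1, which fell by 3.48 (adjusted p = 0.00357), and Col28a1, which fell by 4.44 (adjusted p = 0.00438). Col6a1 fell by 3.31 (adjusted p = 0.00221), Col12a1 fell by 2.02 (adjusted p = 0.0414), Col14a1 fell by 8.04 (adjusted p = 0.0146) and Col5a1 fell by 1.99 (adjusted p = 0.0174). The type IX chains of cartilage-type fibrils were low in myoepithelial cells and at 0 or below 0.4 CPM in brown adipocytes, with Col9a1 at least 94.8-fold and Col9a2 at least 182-fold lower. Col11a1 and Col6a4, at 0 in all 4 brown adipocyte libraries, were at least 98.9- and 21.8-fold lower. Col16a1, Col6a6 and Col9a3 were called lower with adjusted p of 0.00739, 0.0196 and 0.0253. Col5a3 differed by -0.06 (SE 0.40, adjusted p = 0.939), a value that turned to 0.19 with RLE scaling. Its GFP-negative group means were far apart, at 16.9 CPM (Myf5) and 142 CPM (Ucp1). Col5a2 (-2.85, adjusted p = 0.163), Col6a2 (-3.02, adjusted p = 0.122) and Col8a1 (-1.62, adjusted p = 0.372) did not pass.

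**Figure D5:**
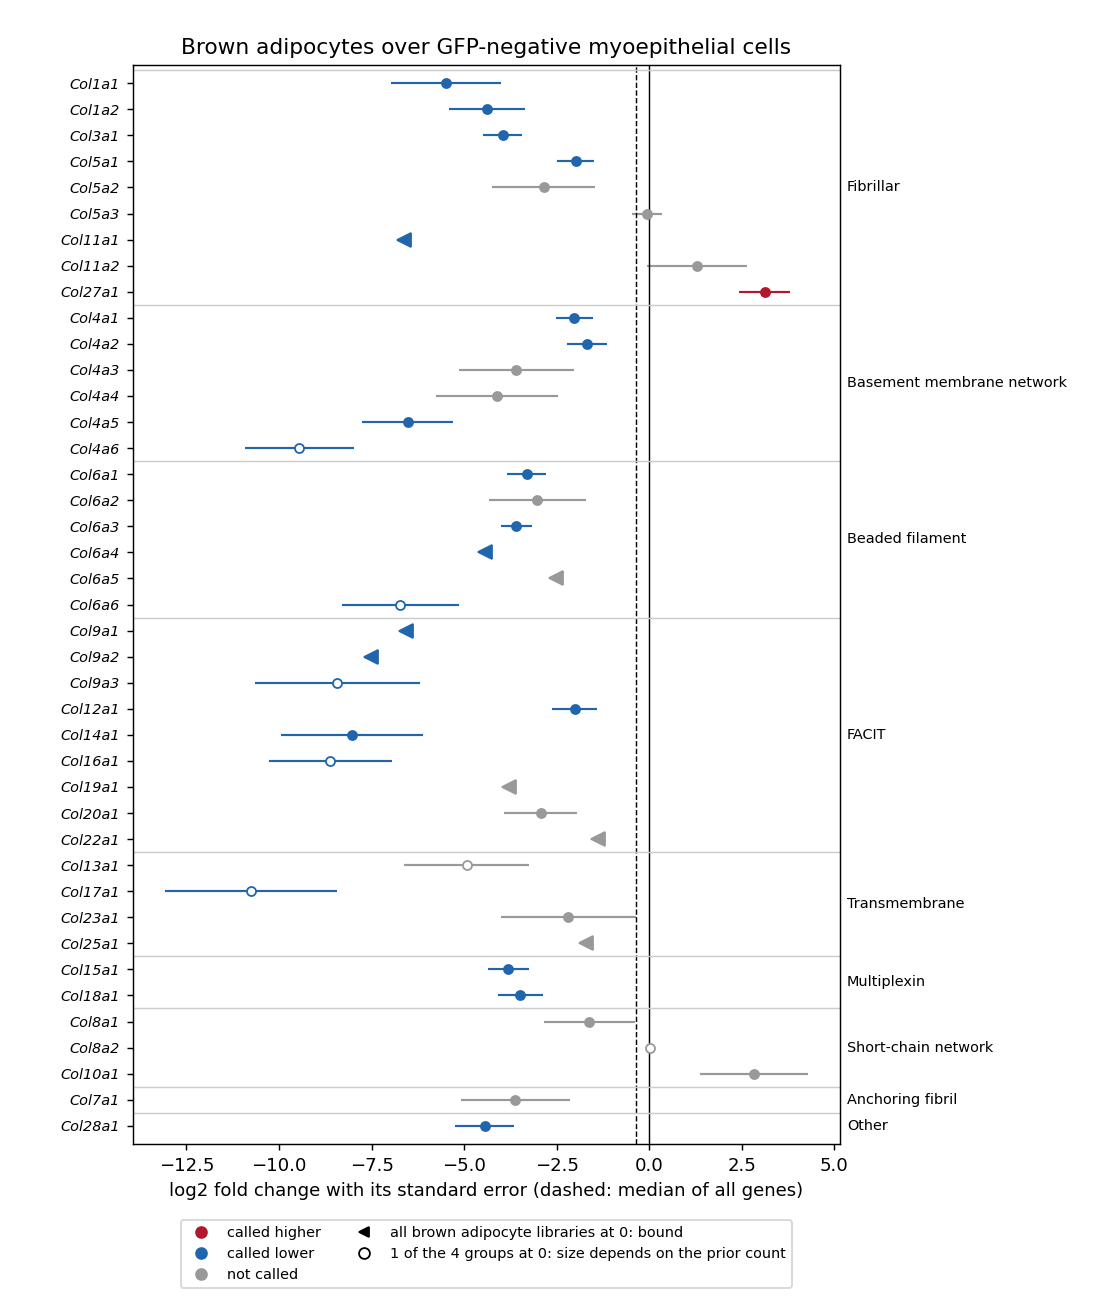
Fitted log2 fold change (point) with its standard error (line) for each tested collagen gene, brown adipocytes over GFP-negative myoepithelial cells, by class, with the median of all genes (-0.35) dashed. Col27a1 is the red point above 0 (3.12), blue points mark the 23 members called lower, triangles are bounds where all brown adipocyte libraries were at 0, and open points have 1 of the 4 groups at 0.

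The median over the 41 tested members was -3.81, or -3.59 with empty groups at their bound, against -0.35 for all genes, a median that RLE scaling raised by 0.24. Stromal markers fell with the collagens, as 7 of 8 fibroblast, 4 of 6 pericyte and 6 of 8 endothelial genes were called lower. So were 8 of 8 myoepithelial and basal, 5 of 5 luminal, 5 of 5 milk and 2 of 6 leukocyte genes. Schwann cell genes divided, with 2 of 4 lower and 1 higher, while 7 of 8 brown adipocyte genes were higher. Their part in the collagen result was not tested. The count of members called was 33 without the Ucp1 GFP-positive myoepithelial libraries (32 lower, beside 23.3% of all genes, and 1 higher, beside 18.3%). Leaving out 1 library gave 9 without Ucp1 brown adipocyte replicate 2, 12 without Myf5 brown adipocyte replicate 2, 13 without Ucp1 brown adipocyte replicate 1 or either Ucp1 GFP-negative replicate, 14 without Myf5 GFP-negative replicate 2 and 15 without Myf5 brown adipocyte replicate 1. Col3a1, Col4a5, Col4a6, Col6a1, Col6a3, Col15a1, Col18a1 and Col28a1 were called in all 13 alternatives run, and Col27a1 was not.

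Within the GFP-positive cells the tissues were compared line by line. In the Myf5 line 13 members were lower in brown adipocytes, beside 10.9% of all genes, and 0 were higher, beside 8.84%. Col6a3 fell by 7.35 on the log2 scale (SE 0.70, adjusted p = 0.000718), Col1a2 fell by 7.02, Col6a1 fell by 6.75, Col3a1 fell by 6.16, Col18a1 fell by 3.79 and Col5a1 fell by 3.68. Col14a1 fell by 8.72 and Col28a1 fell by 4.55, and Col15a1 was lower with an adjusted p of 0.0238. Also lower were, against brown adipocytes at 0, Col16a1 at least 224-fold, Col6a6 at least 67.8-fold, Col13a1 at least 42.4-fold and Col4a6 at least 36.4-fold. Col13a1 stood at 0.124 and 13.2 CPM in the myoepithelial libraries, so that its bound rests on replicate 2. Again 7 of 8 fibroblast and 4 of 6 pericyte markers were lower, with 3 of 8 endothelial and 6 of 8 myoepithelial and basal ones. So were 5 of 5 milk, 3 of 5 luminal and 1 of 6 leukocyte markers, while 5 of 8 brown adipocyte and 1 of 4 Schwann cell markers were higher. The part of these markers was not tested. The count was 27 without the Ucp1 GFP-positive myoepithelial libraries (26 lower, beside 20% of all genes, and 1 higher, beside 17.5%), 8 without Myf5 GFP-positive myoepithelial replicate 1, and 4 without either Myf5 brown adipocyte replicate. DESeq2 called 26 (35.2% of all genes). Col3a1, Col6a1 and Col6a3 were called in all 9 alternatives run. Col13a1 and Col14a1 were not called with the replicate number as a block.

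In the Ucp1 line 6 members were lower in brown adipocytes, beside 5.34% of all genes, and 4 were higher, beside 22.5%. Those lower were Col14a1 (-9.11 on the log2 scale, with library values that overlapped), Col3a1 (-3.84), Col5a1 (-3.04), Col18a1 (-2.85), Col4a1 (-2.47, SE 0.72, adjusted p = 0.0324) and Col6a3 (-2.45). Col4a2, its partner chain, had -1.36 (adjusted p = 0.202). Those higher were at 0 in the Ucp1 GFP-positive myoepithelial libraries, and stood at least 716-fold (Col27a1), 138-fold (Col13a1), 124-fold (Col12a1) and 21.6-fold (Col20a1) above the limit of 3 counts. That limit covers counting error only. The fibroblast list divided, with 3 of 8 higher and 1 lower, as did the leukocyte list, with 2 of 6 higher and 1 lower. Lower were 6 of 8 myoepithelial and basal, 5 of 5 milk, 3 of 5 luminal, 1 of 6 pericyte and 1 of 8 endothelial markers. Higher were 5 of 8 brown adipocyte and 3 of 4 Schwann cell markers. The part of these markers was not tested. The count was 18 without Ucp1 GFP-positive myoepithelial replicate 2, 3 and 5 without Ucp1 brown adipocyte replicate 1 or 2, and 20 with DESeq2 (38.2% of all genes). These comparisons share the brown adipocyte libraries with the one against GFP-negative cells. In the Ucp1 line Col3a1, Col12a1 and Col27a1 were called in all 8 alternatives run. Col14a1 was not called there with the replicate number as a block.

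The driver lines were compared within a cell type. In brown adipocytes no member passed between the Ucp1 and Myf5 lines, beside 1.32% of all genes, with 5 members and 2213 genes at an unadjusted p under 0.05. Ucp1 libraries lay above Myf5 libraries for 9 members (31.3% of all genes) and below for 7 (28.3%). The 3 type VI chains of the common trimer lay above, with log2 differences of 2.23 for Col6a1 and 2.19 for Col6a3 (adjusted p = 0.103), and so did Col28a1 (4.25, adjusted p = 0.114) and Col8a1 (2.81). Without the Ucp1 GFP-positive myoepithelial libraries Col6a3 (2.18, adjusted p = 0.0462) and Col28a1 (4.21, adjusted p = 0.0333) were called higher, beside 5.02% of all genes, and DESeq2 called 5 members (9.73% of all genes). Endothelial markers summed to 3716 and 1931 CPM in the Ucp1 and 126 and 457 CPM in the Myf5 libraries, and 8 of 8 lay above without overlap, with 5 of 6 pericyte and 4 of 6 leukocyte markers. Brown adipocyte markers lay below for 7 of 8 genes (median -1.71), with Ucp1 itself at 949.7 and 3311 CPM in the Ucp1 and 12570 and 16432 CPM in the Myf5 libraries. Their part was not tested.

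GFP-negative myoepithelial cells of the 2 lines carry no label, and 0% of all genes were called between them, none of them members (7 members and 604 genes at an unadjusted p under 0.05). Ucp1 libraries lay above Myf5 libraries for 21 of the 41 tested members (30.4% of all genes) and below for 2 (17.8%). Col3a1 (3.31), Col1a2 (3.13), Col1a1 (3.09), Col5a3 (3.07) and Col6a3 (2.62) had log2 differences of this kind, all with an adjusted p of 1, and DESeq2 called 4 members (0.309% of all genes). Pericyte markers lay above in 6 of 6 cases, summing to 1479.5 and 1429 against 654 and 413 CPM. Fibroblast markers lay above for 5 of 8 genes and below for 0 (median 0.94), with sums of 795 and 601 against 671 and 273 CPM that overlapped. The part of either list was not tested.

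Collagen chains are hydroxylated and folded before export, then trimmed and cross-linked outside the cell. A list of 41 genes held this route, 7 genes of collagen receptors and uptake, and the collagen-binding gene Sparc. Of these 41 genes, 40 were tested. In the Myf5 label comparison 0 of them passed, with a median log2 difference of 1.38 against -0.06 for all genes, and 23 lay above (14.5% of all genes) and 1 below (20.2%) without overlap. By the mean of both groups the most abundant were Sparc, a collagen-binding matrix protein, at 6441 and 5892 against 5520.3 and 4201 CPM, and P4hb, the shared subunit of prolyl hydroxylase, at 698 and 794 against 595 and 415 CPM. Pcolce, an enhancer of propeptide removal named after its values were seen, stood above P4hb in GFP-positive cells, at 767 and 899.7 against 136 and 42.4 CPM. In the Ucp1 label comparison 12 were lower, beside 14% of all genes, and 0 higher, beside 0.277%. These 12 included 5 of the 7 receptor and uptake genes, and Sparc. The smallest adjusted p belonged to Pcolce2, which aids propeptide removal (at least 249-fold lower, adjusted p = 0.00119), the cross-linking enzymes Lox (at least 501-fold, adjusted p = 0.00139) and Loxl1 (adjusted p = 0.00151), and the collagen receptor Ddr1 (at least 906-fold, adjusted p = 0.00238). Such bounds cover counting error only. In the difference between the labels 11 were lower, beside 10.7% of all genes, and 0 higher, beside 0.283%, with Pcolce2, Lox, Loxl1 and the receptor Ddr2 first. These 11 included 5 of the 7 receptor and uptake genes.

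Between tissues, 14 of the 40 genes were lower in brown adipocytes than in GFP-negative myoepithelial cells, beside 14.6% of all genes. Higher were 0, beside 12%. These 14 included 5 of the 7 receptor and uptake genes, and Sparc. P4hb fell by 1.47 on the log2 scale (adjusted p = 0.00494), Sparc fell by 1.65 (adjusted p = 0.00572) and the procollagen proteinase Bmp1 fell by 2.60 (adjusted p = 0.00752), and the integrin Itga11 was at least 35.8-fold lower (adjusted p = 0.00606). In Myf5 GFP-positive cells 12 were lower, beside 10.9% of all genes, and 0 higher, beside 8.84%, led by Ddr2 (-5.75), Pcolce2 (-5.32), P4hb (-2.52) and Fkbp10, a procollagen chaperone (-5.62). These 12 included 4 of the 7 receptor and uptake genes, and Sparc. In Ucp1 GFP-positive cells 8 of 40 were higher in brown adipocytes, a share near the 22.5% of all genes, and 1 was lower, beside 5.34%. The 8 included 2 of the 7 receptor and uptake genes. Among those higher were Pcolce2 (at least 46.8-fold) and Lox (at least 149-fold), bounds that cover counting error only, and Loxl1 and P3h4. Between driver lines 0 passed in either cell type, beside 1.32% of all genes in brown adipocytes and 0% in GFP-negative cells: Sparc stood at 3821 and 2445 against 885 and 987 CPM in brown adipocytes and at 4589.9 and 7298 against 5520.3 and 4201 CPM in GFP-negative myoepithelial cells, and P4hb at 233 and 385 against 134 and 126 CPM and at 602 and 619.9 against 595 and 415 CPM.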

How the data were processed

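Raw read counts per gene were deposited by the authors, 1 file for each of 12 libraries. Per the labels' protocols, cells were sorted by FACS and RNA was amplified with SMART-Seq v4, followed by Illumina sequencing. The submitters' processing notes name TopHat, HTSeq, DESeq2 and mm10. Their versions, the annotation and the strand setting were not found in these sources, so reads of genes that overlap on opposite strands cannot be told apart. Identifiers were mapped with GENCODE M21 (37607 of 38924 genes). Members and lists were chosen with earlier results of these data known.

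CPM were counts over library totals times TMM factors. Genes passing filterByExpr (minimum count 10; 16953 genes, 41 of 44 members, not Col2a1, Col24a1 or Col26a1) were tested with edgeR 4.0.16 in R 4.3.3 (quasi-likelihood, all 12 libraries, a mean per group), Benjamini-Hochberg adjusted over all genes, threshold 0.05. The procedure was tested on simulated data with the same spread for all genes and groups. That test does not cover groups as discordant as the Ucp1 GFP-positive myoepithelial cells. A gene with no counts in a group was set to 3 counts of that group's total for a bound, which covers counting error only. Lengths are those of the longest coding transcript. The 26 members that average 20 CPM or more in any group are given in every library and the other 18 by their range or call. Of the processing list, up to 4 called genes of smallest adjusted p are named, or the 2 of highest mean CPM. Alternatives were RLE factors, no filter, DESeq2 1.42.0, the replicate number as a block, raw totals or totals without mitochondrial and milk genes, and leaving out libraries. No 2 libraries of a group agreed within sampling noise (chi-square per degree of freedom 37.2 to 692).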

Additional observations from a re-analysis of the deposited data

Results flagged for a closer look

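The label effect differed between the driver lines for 14 collagen genes by the interaction test (edgeR quasi-likelihood, Benjamini-Hochberg over all genes, beside 10.7% of all genes called lower). The adjusted p was 0.0357 for Col1a2, 0.00379 for Col3a1, 0.0164 for Col5a3 and 0.00548 for Col27a1 among fibrillar members, and 0.0258 for Col4a5 and 0.0432 for Col4a6 in the basement membrane network. It was 0.0136 for Col6a1, 0.00345 for Col6a3 and 0.0472 for Col6a6 among beaded filament members and 0.00258 for Col12a1 and 0.0184 for Col20a1 among FACIT members. The others were Col13a1 (0.0368), Col15a1 (0.00933) and Col8a2 (0.00873). Col3a1, Col27a1, Col6a3, Col12a1 and Col8a2 were called in all 12 alternatives run.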

How the results depend on the processing

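Leaving out 1 library gave ranges of 0 to 0 members called for the Myf5 label, 6 to 19 for the Ucp1 label, 5 to 22 for their difference, 9 to 19, 4 to 9 and 3 to 18 for brown adipocytes against GFP-negative, Myf5 GFP-positive and Ucp1 GFP-positive myoepithelial cells, and 0 to 1 and 0 to 0 for the driver lines in brown adipocytes and GFP-negative cells. The single call was without Myf5 brown adipocyte replicate 2. Where 1 library was left in a group, it was assumed to vary like the other groups. With DESeq2 the counts were 7 for the Myf5 label, 26 and 20 for the tissues in Myf5 and Ucp1 GFP-positive cells, and 5 and 4 for the driver lines in brown adipocytes and GFP-negative cells. Without both Ucp1 GFP-positive myoepithelial libraries they were 7 for the Myf5 label, 27 for the tissues in Myf5 GFP-positive cells and 2 for the driver lines in brown adipocytes. The cause was not tested, except that fewer libraries enter the last fits. The replicate number as a block gave 7 members for the Ucp1 label (12 without it) and stayed within 1.5 times elsewhere; deviations of same-numbered libraries correlated at 0.472 between the Myf5 sorts, 0.0686 between the Ucp1 sorts and -0.109 to 0.108 elsewhere, and the labels give these numbers no meaning. Summed collagen CPM in Ucp1 GFP-positive myoepithelial cells was 5182 on totals without mitochondrial and milk genes (4042 as reported), and in Ucp1 GFP-negative cells 8466 on raw totals and 9340 without those genes (7824 as reported). Directions turned for values that did not pass: Col4a1 was 0.036 for the Ucp1 label with RLE and with DESeq2. With 1 library left out, Col4a1 ranged from -0.98 to 0.73 for the Myf5 label (0.040 without GFP-positive replicate 1 and 0.73 without GFP-negative replicate 2), and Col4a2 from -1.95 to 0.44 (the latter without GFP-negative replicate 2). Col5a3 between brown adipocytes and GFP-negative cells was 0.19 with RLE and with DESeq2, and ranged from -0.35 to 0.34 with 1 library left out, 0.34 without Myf5 GFP-negative replicate 2 and 0.13 without Ucp1 brown adipocyte replicate 1. RLE moved the median of all genes by 0.14 for the tissues in Myf5 GFP-positive cells and by -0.11 for the driver lines in GFP-negative cells.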
